A study of Homo sapiens with 24 samples.

Results

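The heat shock chaperones described here are 10 genes taken by name from the 26249 genes of the deposited tables: HSPA1A, HSPA1B, DNAJB1, HSPH1, HSPD1, HSPE1, HSP90AA1, HSPA8, CHORDC1 and FKBP4. Their RNA was measured in established lines of human multiple myeloma, H929 and MM1S, that were given YKL-5-124 (YKL below) or its vehicle DMSO. YKL-5-124 is a code name, and the title of the study calls the compound an inhibitor of the kinase CDK7. The 8 groups were H929 with YKL and with DMSO at 24 h, H929 with YKL and with DMSO at 6 h, and the same pairs of MM1S, with 3 libraries each. The labels give 83 nM for H929 and 98 nM for MM1S, on the DMSO libraries as well, so line and dose cannot be told apart. Whether the 3 libraries of a group were separate cultures is not stated in the labels, and the spread that the p-values rest on may therefore be technical.

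Heat shock proteins are chaperones that bind unfolded proteins and help them reach or regain their shape. The transcription factor HSF1 drives most of their genes when unfolded protein builds up, by binding repeated short units called the heat shock element, and the chaperones in turn hold HSF1 inactive. Myeloma cells secrete large amounts of protein and depend on chaperones and on the proteasome. HSPA1A and HSPA1B encode the inducible cytosolic HSP70, HSPA8 the constitutive HSP70, DNAJB1 a J domain partner that delivers substrates to HSP70, and HSPH1 a nucleotide exchange factor of HSP70. HSPD1 and HSPE1 encode the mitochondrial chaperonin HSP60 and its lid HSP10, HSP90AA1 the inducible cytosolic HSP90, and FKBP4 and CHORDC1 a pair of cochaperones that bind HSP90.

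Levels are in FPKM, reads scaled by transcript length and library, on a scale on which the added spike-in RNAs were level between libraries (medians within -0.042 and 0.09 on the log2 scale). On this deposited scale a change in the RNA of a whole library moves every gene, and fewer cells and less RNA per cell cannot be told apart. Summed gene FPKM ran from 361698 to 2519630 over the libraries, so the member comparisons are also given after rescaling the libraries to the median of 6014 reference genes, called rescaled below. The spread of the spike-ins was far wider in MM1S YKL 6 h replicate 2 (SD 0.964 on the log2 scale) and MM1S DMSO 24 h replicate 1 (0.58) than in the other 22 libraries (at most 0.329). Counts of members and ratios that use them are also given without them. The share of all genes called is not given for those fits, so such counts show only how the calls hang on these 2 libraries. MM1S DMSO 24 h replicate 2 stood apart too, with 844759 summed FPKM against 399544 and 440282 in the other libraries of its group. Of 9 plasma cell markers 8 had an entry, and they summed to 1079 to 8433 FPKM per library. FGFR3 and WHSC1, raised by the translocation that H929 carries, summed to 92.6 to 265 FPKM in H929 and 4.25 to 24.8 FPKM in MM1S. MAF, the marker taken for MM1S, ran from 13.6 to 23.4 FPKM in H929 and from 10.9 to 54 FPKM in MM1S on the deposited scale. The overlap lay in MM1S with DMSO at 24 h (10.9 to 24 FPKM), a group with low summed FPKM. The other MM1S groups, at 27 to 54 FPKM, lay above all H929 libraries. MAF was not looked at after rescaling. T cell and monocyte markers summed to at most 4.43 FPKM. Epithelial and fibroblast markers summed to 8.36 to 33.8 FPKM in H929 and at most 1.8 FPKM in MM1S, where 1 of the 5, KRT18 (7.43 to 33.2 FPKM in H929), carried the H929 sum and EPCAM and KRT8 stayed at or under 0.325 FPKM. Of the 12418 genes that passed the filter on low values, 9 were members, and HSPA1A did not pass.

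The promoters of the members are shown first, since HSF1 acts there. RefSeq windows of 300 bases around the start site (250 before and 50 after it, GRCh38.p14) were found for 9 of the 10 members, in 13 windows. FKBP4 was not matched. The units searched were GAANNTTC and TTCNNGAA, each of which reads the same on both strands, and the longer GAANNTTCNNGAA with its reverse complement TTCNNGAANNTTC, which contain the shorter ones. Over all 35116 windows, 6.77% held GAANNTTC, 7.74% held TTCNNGAA, 13.5% held either and 0.49% held a run of 3 units. Of the 9 members with a window, 7 held either pair in at least 1 window and 4 held a run of 3 units (CHORDC1, HSPA8, HSP90AA1 and HSPD1). HSPH1 and HSPE1 held neither. The members are counted by gene and the shares by window, and DNAJB1, HSPD1 and HSP90AA1 had more than 1 window, so the counts and shares differ in unit. A match is a string of letters and was not tested as a binding site.

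In the sequences the capitals mark the bases of all matches, and each is printed 5′ to 3′ on the strand of its gene. HSPA1B lies at chr6:31827488-31827787 (plus strand), and its single pair ends 98 bases before the start site. DNAJB1 has 3 windows, of which the second, at chr19:14518348-14518647 (minus strand), held a pair 77 and another 47 bases before the start. HSPA8 lies at chr11:123062087-123062386 (minus strand) and CHORDC1 at chr11:90223000-90223299 (minus strand).
HSPA1B: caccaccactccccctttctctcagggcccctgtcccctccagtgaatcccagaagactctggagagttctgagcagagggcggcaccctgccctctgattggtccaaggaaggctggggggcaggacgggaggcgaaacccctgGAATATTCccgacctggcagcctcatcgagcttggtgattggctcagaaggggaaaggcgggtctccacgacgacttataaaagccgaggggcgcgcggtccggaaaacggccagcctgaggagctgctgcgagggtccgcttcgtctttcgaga
DNAJB1: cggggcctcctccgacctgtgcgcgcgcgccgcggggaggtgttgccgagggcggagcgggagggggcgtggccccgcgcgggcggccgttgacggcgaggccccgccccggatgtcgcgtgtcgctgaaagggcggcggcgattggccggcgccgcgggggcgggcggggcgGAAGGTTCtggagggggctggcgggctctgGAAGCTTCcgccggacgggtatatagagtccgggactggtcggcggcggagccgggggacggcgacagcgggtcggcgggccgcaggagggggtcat
HSPA8: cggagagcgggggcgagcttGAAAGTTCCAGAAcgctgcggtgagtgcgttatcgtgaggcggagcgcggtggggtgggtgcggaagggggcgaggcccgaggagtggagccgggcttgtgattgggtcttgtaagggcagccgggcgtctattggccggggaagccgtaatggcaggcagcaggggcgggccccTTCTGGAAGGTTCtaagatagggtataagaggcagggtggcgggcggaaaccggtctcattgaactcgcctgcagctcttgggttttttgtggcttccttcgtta
CHORDC1: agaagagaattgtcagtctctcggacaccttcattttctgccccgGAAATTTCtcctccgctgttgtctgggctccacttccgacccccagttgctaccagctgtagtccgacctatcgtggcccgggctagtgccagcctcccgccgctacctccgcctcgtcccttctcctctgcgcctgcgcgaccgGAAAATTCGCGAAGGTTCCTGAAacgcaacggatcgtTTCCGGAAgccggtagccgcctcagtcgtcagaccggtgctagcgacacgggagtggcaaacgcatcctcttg
These 4 genes are printed whole because the comparisons below turn on them. HSPA8 held a run of 3 units at 55 bases before the start and another at 230, and CHORDC1 held a longer row of overlapping runs that opened 60 bases before the start. HSPA1B also held the TATA box letters TATAAA, as 11.5% of all windows did, and none of the other 3 did in the windows printed. The HSPA1A window matched that of HSPA1B at 277 of 301 aligned positions (92.0%).

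For HSP90AA1 and HSPD1 only the 60 bases that hold the matches are printed, at chr14:102087085-102087144 (minus strand) and at chr2:197500031-197500090 (minus strand).
HSP90AA1: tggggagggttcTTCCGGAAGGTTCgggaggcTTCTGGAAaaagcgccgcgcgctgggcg
HSPD1: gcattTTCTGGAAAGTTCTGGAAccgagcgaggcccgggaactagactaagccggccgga
HSPD1 and HSPE1 lie head to head on chromosome 2. The start site of HSPE1 lies 105 bases from the nearer of the annotated HSPD1 start sites and 539 bases from the farther one, and the HSPD1 matches fall between those HSPD1 starts, outside the HSPE1 window.

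**Figure D1:**
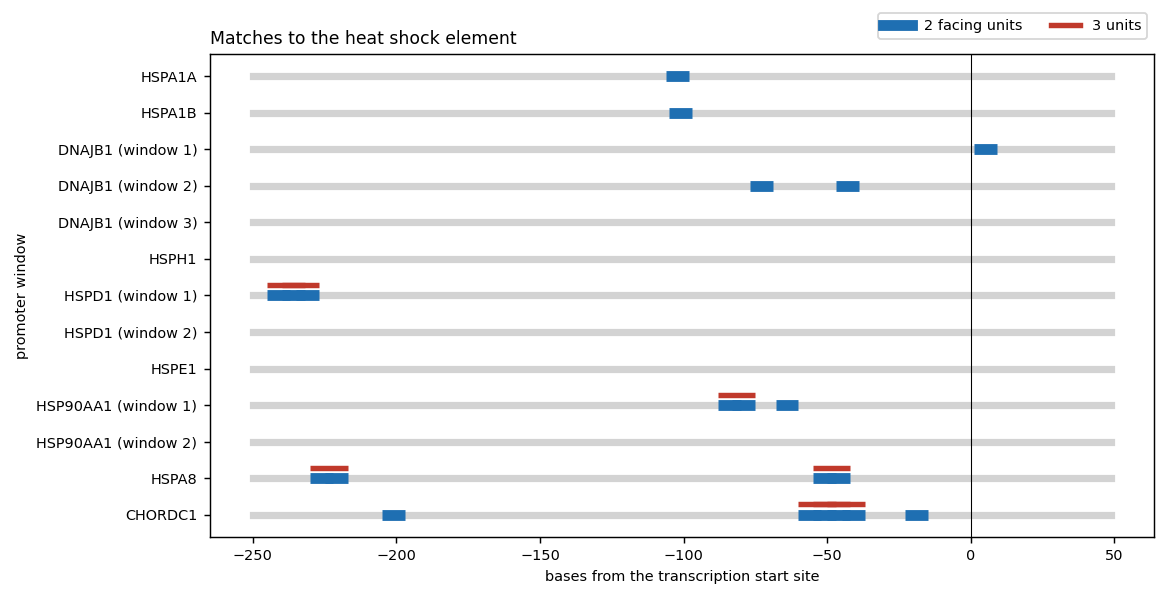
Position of matches to the heat shock element in the 13 promoter windows of 9 members. The x axis gives bases from the start site, grey bars are the windows, blue blocks are pairs of facing units and red bars are runs of 3 units. Matches lie in 7 of the 9 genes, and the runs of 3 units lie in HSPD1, HSP90AA1, HSPA8 and CHORDC1.

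Most of the tested members fell with YKL in H929 at 24 h and in MM1S at 6 h, and few passed the test in H929 at 6 h or, on the deposited scale, in MM1S at 24 h. In H929 at 24 h, 8 of 9 fell (adjusted p under 0.05, limma with Benjamini-Hochberg adjustment over all tested genes), where 35.4% of all tested genes fell. Their median log2 change was -1.92, against -0.46 over all tested genes. After rescaling the same 8 fell, against 12.5% of all genes, and HSPA1B rose, against 20.8% of all genes that rose, with medians of -1.08 and 0.13. In H929 at 6 h 1 member fell (HSPA8), against 1.16% of all genes, and the same 1 after rescaling, against 4.19% of all genes. The members' median there was -0.57, against -0.06 over all genes, and -0.38 against 0.07 after rescaling.

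In MM1S at 6 h all 9 tested members fell, where 10.0% of all genes fell. Their median log2 change was -1.41, against -0.29 over all genes. After rescaling 8 of the 9 fell, against 7.22% of all genes, and HSPE1 missed the threshold (adjusted p = 0.0597). Without the 2 libraries with spread spike-ins 6 fell on the deposited scale and 9 after rescaling. In MM1S at 24 h 3 fell (HSPA8, HSPE1 and HSP90AA1), against 6.77% of all genes, and 7 fell after rescaling, against 13.3% of all genes. This count hung on single libraries: it was 0 without YKL replicate 1, 1 without YKL replicate 2, DMSO replicate 1 or DMSO replicate 2, 2 without YKL replicate 3 and 5 without DMSO replicate 3. Without the 2 libraries with spread spike-ins 1 fell on the deposited scale (HSPD1) and 6 after rescaling. With all libraries the members' median log2 change in MM1S at 24 h was -0.75, against -0.12 over all genes. After rescaling it was -0.57, against 0.05.

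The members also fell with time in culture in MM1S with DMSO alone. At 24 h all 9 tested members were lower than at 6 h, but so were 56.0% of all tested genes. After rescaling, which takes out the fall of the median gene, 7 of 9 were lower, against 5.38% of all genes, with a median log2 change of -0.62 against 0.13 over all genes. The 2 that did not pass were HSPE1 and HSPA8. Without the 2 libraries with spread spike-ins 9 were lower on the deposited scale and 7 after rescaling, where HSPE1 passed (-0.67, adjusted p = 0.00306) and HSPD1 did not (-0.35, adjusted p = 0.106). In H929 with DMSO the deposited values gave no call over time (0 of 9 by limma, 1 of them with an unadjusted p under 0.05, against 0.0403% of all genes that were lower), and HSPA1B alone was lower after rescaling, against 0.378% of all genes. The YKL and the time comparisons of a line share DMSO libraries, so their values are set side by side here and not compared.

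**Figure D2:**
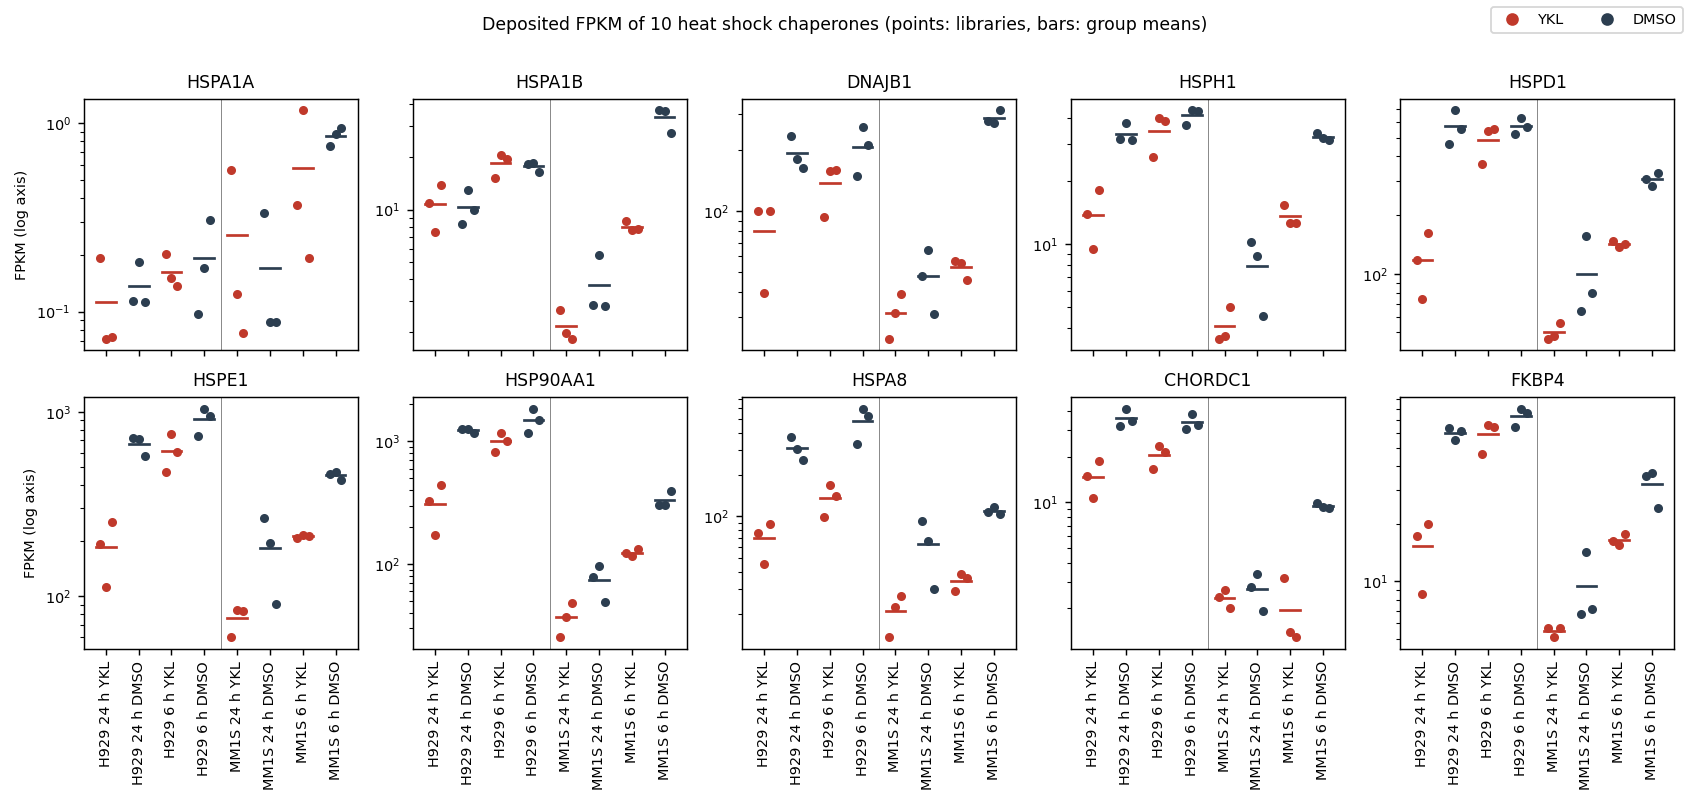
FPKM of the 10 members in all 24 libraries, on a log axis, with YKL (red) left of DMSO (dark) within each line and time. Points are libraries and bars are group means. In MM1S the DMSO libraries at 24 h lie below those at 6 h for each of the 9 tested members. The share of all genes whose groups were apart there was not computed. By limma 56.0% of all tested genes were called lower there on this scale. After rescaling 7 of the 9 members were called lower, against 5.38% of all genes. In H929 no member passed the test over time on this scale.

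Among the HSP70 genes HSPA8, which is made in all cells without stress, had 75.9, 45.7 and 88.7 FPKM in H929 with YKL at 24 h, against 373, 306 and 253 FPKM with DMSO. The 6 h values were 98.7, 170 and 141 FPKM with YKL, against 332, 596 and 526 FPKM with DMSO. The YKL libraries lay below all DMSO libraries at both times. The log2 changes were -2.17 ± 0.35 at 24 h (SE, adjusted p = 6.09e-05) and -1.81 ± 0.35 at 6 h (adjusted p = 0.00624), and -1.33 and -1.61 after rescaling. HSPA8 was the only member that fell with YKL in all 4 comparisons on both scales.

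In MM1S with YKL HSPA8 stood at 13.6, 22.4 and 27 FPKM at 24 h, against 93.2, 66.6 and 30.3 FPKM with DMSO. Values at 6 h were 29.2, 38.3 and 35.9 FPKM with YKL, against 108, 117 and 104 FPKM with DMSO. The groups did not overlap at either time, but at 24 h the lowest DMSO library came within a few FPKM of the YKL libraries. Log2 changes came to -1.46 ± 0.35 at 24 h (adjusted p = 0.00906) and -1.65 ± 0.35 at 6 h (adjusted p = 0.00466). The call at 24 h was lost without DMSO replicate 1 (-1.12, adjusted p = 0.0701) or YKL replicate 1 (-1.19, adjusted p = 0.0858), over a range of adjusted p from 0.000411 to 0.0858 across 13 alternatives. Over time with DMSO, HSPA8 moved by -0.92 ± 0.35 in MM1S (adjusted p = 0.0274, but 0.0581, 0.07 and 0.268 without DMSO 6 h replicate 1, DMSO 6 h replicate 2 and DMSO 24 h replicate 3). After rescaling the change was 0.25 (adjusted p = 0.548), but the rescaled levels at 24 h were 212, 83.3 and 83.9, against 89.5, 95.6 and 102 at 6 h. Only replicate 1, with spread spike-ins, lay above the 6 h libraries, and without the 2 such libraries the change was -0.19 (adjusted p = 0.617).

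HSPA1B, the inducible HSP70, had 10.9, 7.44 and 13.8 FPKM in H929 with YKL at 24 h, against 8.29, 12.9 and 9.99 FPKM with DMSO. At 6 h it had 15.1, 20.5 and 19.6 FPKM with YKL, against 18.2, 18.5 and 16.4 FPKM with DMSO. The groups overlapped at both times, and the log2 changes were 0.02 ± 0.24 and 0.04 ± 0.24 (adjusted p = 0.959 and 0.971). After rescaling the level at 24 h was 10.2, 11.2 and 10.7 with YKL, against 4.86, 6.75 and 6.18 with DMSO. On that scale the groups did not overlap and HSPA1B rose by 0.76 ± 0.14 on the log2 scale (adjusted p = 0.000285), the 1 member with a rise in any YKL comparison.

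In MM1S with YKL HSPA1B stood at 2.67, 1.97 and 1.84 FPKM at 24 h, against 2.85, 5.52 and 2.83 FPKM with DMSO. The earlier libraries had 8.65, 7.61 and 7.71 FPKM with YKL, against 37, 36.6 and 27.3 FPKM with DMSO. The groups were wide apart at 6 h and near each other at 24 h. The log2 change was -1.93 ± 0.24 at 6 h (adjusted p = 6.76e-05) and -0.55 ± 0.24 at 24 h (adjusted p = 0.21, and 0.0448 after rescaling). With DMSO in MM1S the log2 change over time was -2.90 ± 0.24 (adjusted p = 3.21e-07), and -1.90 after rescaling, the lowest of the 9 members on both scales. In H929 it was -0.73 ± 0.24 over time (adjusted p = 0.392, and 0.0373 after rescaling).

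HSPA1A, which encodes nearly the same protein as HSPA1B, stayed near the lowest values of the tables. It ran from 0.0718 to 1.17 FPKM over the 24 libraries, and 1 library reached 1 FPKM, MM1S YKL 6 h replicate 2, whose spike-ins were spread. Its mean was 0.577 ± 0.52 FPKM with YKL and 0.855 ± 0.0964 FPKM with DMSO in MM1S at 6 h (SD, n = 3). No test was made. In GENCODE v29, 72.6% of the stretches of 50 bases of the HSPA1A transcript are also found in HSPA1B, but none of the 251 stretches in its last 300 bases, which a 3′ library reads. The start sites of these single exon genes lie 12195 bases apart on chromosome 6.

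DNAJB1, which hands substrates to HSP70, had the largest fall of all members with YKL in MM1S at 6 h. It had 56.9, 55.7 and 46 FPKM with YKL, against 279, 273 and 315 FPKM with DMSO. The groups lay far apart, with a log2 change of -2.43 ± 0.33 (adjusted p = 0.000129) and -1.97 after rescaling. At 24 h it had 23.6, 31.6 and 39.4 FPKM with YKL, against 47.9, 64.2 and 31.3 FPKM with DMSO. Those groups overlapped, and the change was -0.56 ± 0.33 (adjusted p = 0.401). With DMSO the level at 24 h averaged 47.8 ± 16.4 FPKM, against 289 ± 23.1 FPKM at 6 h (SD, n = 3), a log2 change of -2.63 ± 0.33 (adjusted p = 5.88e-05) and -1.45 after rescaling.

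In H929 DNAJB1 passed the test at 24 h. It had 99.9, 39.4 and 101 FPKM with YKL at that time, against 236, 182 and 164 FPKM with DMSO. After 6 h the level was 93.7, 158 and 160 FPKM with YKL, against 149, 260 and 211 FPKM with DMSO. The groups were apart at 24 h and overlapped at 6 h. On the log2 scale the changes were -1.37 ± 0.33 at 24 h (adjusted p = 0.00265, and 0.0347 after rescaling) and -0.59 ± 0.33 at 6 h (adjusted p = 0.425). Over time with DMSO the change was -0.07 ± 0.33 and did not pass.

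HSPH1, which exchanges the nucleotide of HSP70, fell with YKL in H929 at 24 h and in MM1S at 6 h. In H929 at 24 h it had 14, 9.46 and 18.1 FPKM with YKL, against 31.8, 37.9 and 31.3 FPKM with DMSO. In MM1S at 6 h it had 15.5, 12.6 and 12.6 FPKM with YKL, against 33.9, 32.1 and 31.4 FPKM with DMSO. The groups did not overlap in either, with log2 changes of -1.26 ± 0.26 (adjusted p = 0.000621) and -1.21 ± 0.26 (adjusted p = 0.0051), and -0.46 and -0.76 after rescaling. In MM1S at 24 h the groups overlapped, and the change of -0.75 ± 0.26 did not pass on the deposited scale (adjusted p = 0.0772) but did after rescaling (-0.57, adjusted p = 0.016). Without the 2 libraries with spread spike-ins it passed on neither scale (adjusted p = 0.344, and 0.0771 after rescaling). With DMSO in MM1S it averaged 7.88 ± 2.98 FPKM at 24 h, against 32.5 ± 1.31 FPKM at 6 h.

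The mitochondrial chaperonin genes HSPD1 and HSPE1 fell with YKL in H929 at 24 h and in MM1S at 6 h. In H929 HSPD1 had 117, 73.7 and 163 FPKM with YKL at 24 h, against 463, 692 and 556 FPKM with DMSO. At 6 h it had 364, 538 and 553 FPKM with YKL, against 520, 629 and 567 FPKM with DMSO. The 24 h groups were far apart and the 6 h groups overlapped. The log2 change was -2.32 ± 0.29 at 24 h, the lowest among the 9 members (adjusted p = 4.56e-06), and -1.48 after rescaling. At 6 h it was -0.26 ± 0.29 (adjusted p = 0.762).

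In MM1S HSPD1 had 46.4, 48.2 and 56.1 FPKM with YKL at 24 h, against 64.2, 156 and 79.9 FPKM with DMSO. The 6 h values were 147, 137 and 142 FPKM with YKL, against 305, 283 and 327 FPKM with DMSO. The YKL libraries lay below all DMSO libraries at both times. The log2 changes were -0.88 ± 0.29 at 24 h (adjusted p = 0.0683, and 0.002 after rescaling) and -1.09 ± 0.29 at 6 h (adjusted p = 0.0194, and 0.0588 to 0.0656 without DMSO replicate 1 or 3 or YKL replicate 2 or 3). With DMSO over time HSPD1 moved by -1.70 ± 0.29 in MM1S (limma, adjusted p = 0.00016), and by -0.52 after rescaling (adjusted p = 0.0167).

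HSPE1, the lid of the same complex, averaged 186 ± 70.7 FPKM with YKL and 672 ± 83.3 FPKM with DMSO in H929 at 24 h (SD, n = 3), a log2 change of -1.92 ± 0.32 (adjusted p = 8.58e-05) and -1.08 after rescaling. In MM1S it averaged 76.1 ± 13.8 FPKM with YKL and 184 ± 88 FPKM with DMSO at 24 h, and 211 ± 3.93 and 453 ± 21.1 FPKM at 6 h, with log2 changes of -1.15 ± 0.32 (adjusted p = 0.0261) and -1.10 ± 0.32 (adjusted p = 0.0294). After rescaling they were -0.88 (adjusted p = 0.00518) and -0.63 (adjusted p = 0.0597). With DMSO over time HSPE1 moved by -1.43 ± 0.32 in MM1S (limma, adjusted p = 0.000925), and by -0.24 after rescaling (adjusted p = 0.485). Both deposited calls with YKL were near the threshold: the one at 6 h was lost without any 1 of its 6 libraries (adjusted p = 0.0588 to 0.0902), and the one at 24 h without any but DMSO replicate 3 (adjusted p = 0.0513 to 0.169). Of the stretches of 50 bases in the last 300 bases of the HSPE1 transcript, 17.5% are also found in pseudogenes such as HSPE1P3, so some of its reads may have been placed elsewhere.

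HSP90AA1, the inducible HSP90, fell in H929 at 24 h. It had 325, 173 and 438 FPKM with YKL at 24 h, against 1266, 1250 and 1171 FPKM with DMSO. Values at 6 h were 821, 1170 and 1016 FPKM with YKL, against 1161, 1849 and 1494 FPKM with DMSO. At 6 h 1 YKL library reached the lowest DMSO library, and at 24 h none did. Log2 changes came to -2.07 ± 0.31 at 24 h (adjusted p = 2.55e-05) and -0.57 ± 0.31 at 6 h (adjusted p = 0.395), and -1.23 and -0.38 after rescaling, with the same calls.

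In MM1S HSP90AA1 had 25.5, 37.1 and 48.2 FPKM with YKL at 24 h, against 78.6, 96.8 and 49.4 FPKM with DMSO. At 6 h it had 124, 116 and 134 FPKM with YKL, against 302, 306 and 398 FPKM with DMSO. The groups did not overlap, although at 24 h the highest YKL and the lowest DMSO library nearly met. On the log2 scale the changes were -0.99 ± 0.31 at 24 h (adjusted p = 0.0479) and -1.41 ± 0.31 at 6 h (adjusted p = 0.00573), and -0.73 (adjusted p = 0.00512) and -0.94 (adjusted p = 0.00171) after rescaling. The deposited 24 h call was lost without DMSO replicate 1 or 2 or YKL replicate 1 or 2 (adjusted p = 0.116 to 0.272). With DMSO over time it moved by -2.19 ± 0.31 in MM1S (adjusted p = 7.5e-05) and by -0.26 ± 0.31 in H929 (adjusted p = 0.947).

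FKBP4, the cochaperone that links HSP90 to steroid receptors, had 17.3, 8.56 and 19.9 FPKM in H929 with YKL at 24 h, against 63.9, 54.9 and 61.3 FPKM with DMSO. The groups lay far apart, with a log2 change of -1.98 ± 0.28 (adjusted p = 1.43e-05) and -1.17 after rescaling. At 6 h it averaged 59.3 ± 11 FPKM with YKL and 73.9 ± 8.18 FPKM with DMSO, and the groups overlapped (adjusted p = 0.654). In MM1S it averaged 16.5 ± 1.15 FPKM with YKL and 32.3 ± 6.9 FPKM with DMSO at 6 h (log2 change -0.91 ± 0.28, adjusted p = 0.0381, and -0.46 after rescaling, adjusted p = 0.0186). The deposited call was lost without DMSO replicate 1 or 2 or any 1 of the YKL libraries (adjusted p = 0.0784 to 0.135). In MM1S at 24 h FKBP4 changed by -0.61 ± 0.28 with YKL (limma, adjusted p = 0.217), and by -0.39 after rescaling (adjusted p = 0.0245). With DMSO over time it moved by -1.73 ± 0.28 in MM1S (adjusted p = 0.000115), and by -0.62 after rescaling (adjusted p = 0.00353). The last 500 bases of FKBP4 overlap the antisense gene ITFG2-AS1 in GENCODE v29, and whether the authors counted by strand is not given in the sources used here.

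CHORDC1, which binds HSP90 through its zinc binding domains, fell in MM1S at 6 h and did not pass the test at 24 h. It had 2.36, 2.65 and 2 FPKM with YKL at 24 h, against 2.77, 3.38 and 1.91 FPKM with DMSO. The earlier libraries had 3.18, 1.4 and 1.29 FPKM with YKL, against 9.97, 9.28 and 9.24 FPKM with DMSO. The groups overlapped at 24 h and were wide apart at 6 h. The log2 changes were -0.13 ± 0.24 at 24 h (adjusted p = 0.872) and -1.88 ± 0.24 at 6 h (adjusted p = 7.96e-05), and 0.09 (adjusted p = 0.746) and -1.53 (adjusted p = 5.65e-06) after rescaling. At levels this low the pseudocount makes the log2 change smaller than that of the FPKM themselves. With DMSO alone CHORDC1 was also lower at 24 h than at 6 h in MM1S. That change was -1.53 ± 0.24 (limma, adjusted p = 0.000113), and -0.58 after rescaling (adjusted p = 0.0273).

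In H929 CHORDC1 had 14.9, 10.7 and 18.7 FPKM with YKL at 24 h, against 32, 41.6 and 34.4 FPKM with DMSO. After 6 h the level was 16.5, 23.6 and 21.4 FPKM with YKL, against 30.4, 38.4 and 32.6 FPKM with DMSO. The groups did not overlap at either time. The change of -1.26 ± 0.24 at 24 h passed the test (adjusted p = 0.000402, and 0.0474 after rescaling), and that of -0.70 ± 0.24 at 6 h did not (adjusted p = 0.14).

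**Figure D3:**
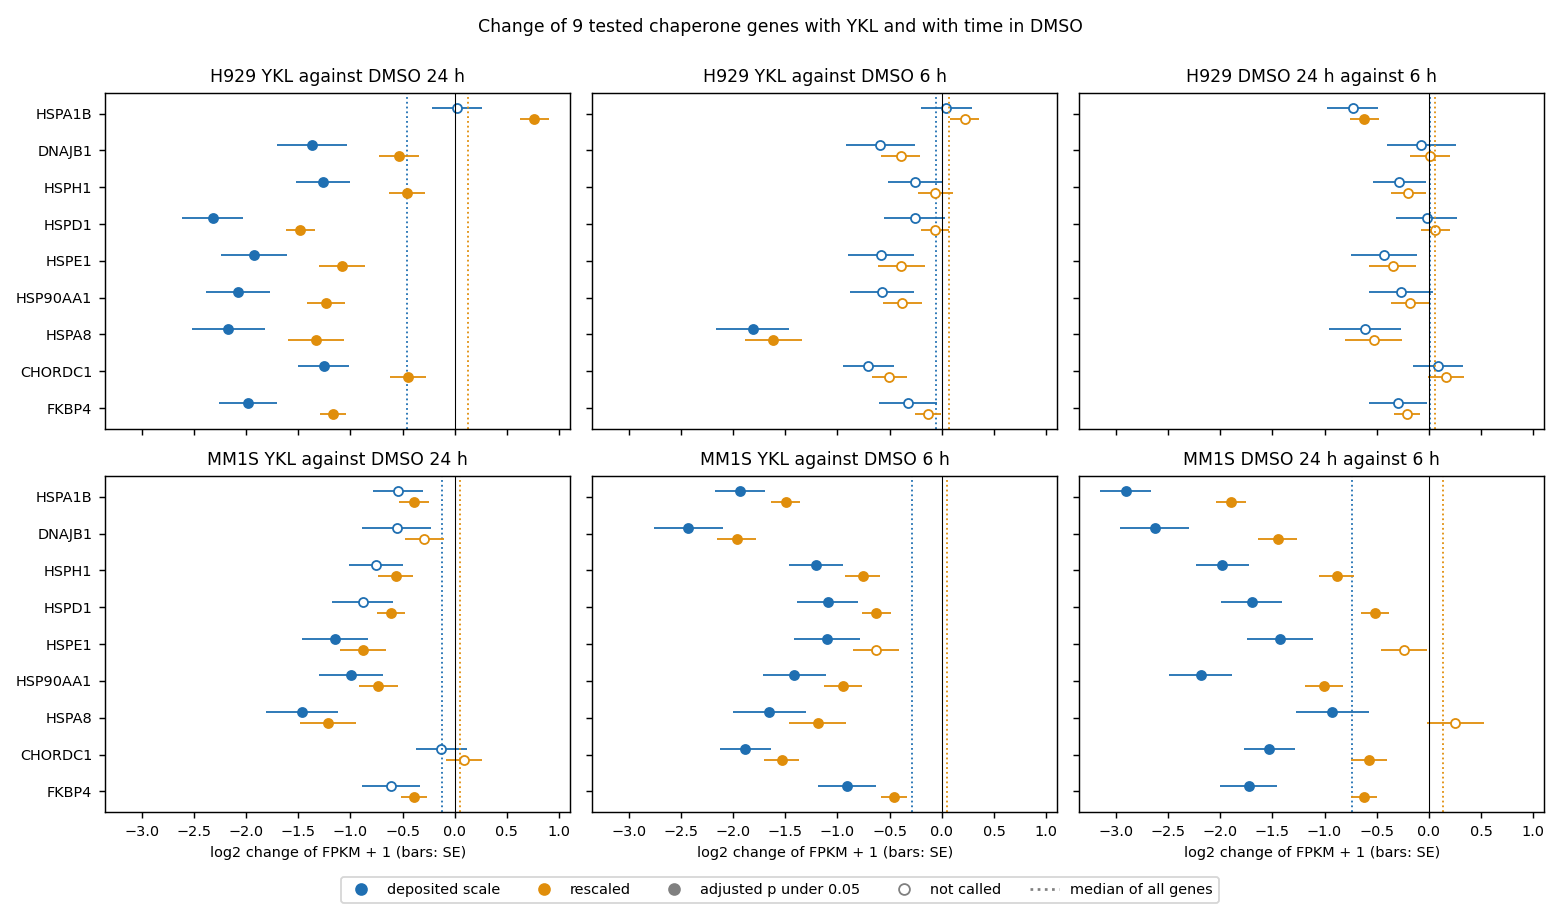
Log2 changes of the 9 tested members with YKL at 24 h and 6 h and with time in DMSO, in H929 (top) and MM1S (bottom). Blue points are the deposited scale and orange points the rescaled one, bars are standard errors, filled points passed an adjusted p of 0.05, and dotted lines are the median of all tested genes. With YKL at 24 h in H929 every member but HSPA1B lies left of the median of all genes on both scales.

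The responses themselves were compared between times and lines. In H929 the response at 24 h was lower than at 6 h for HSPD1 (-2.06 ± 0.41 on the log2 scale, adjusted p = 0.00607), FKBP4 (-1.66 ± 0.39, adjusted p = 0.0152) and HSP90AA1 (-1.50 ± 0.43, adjusted p = 0.0403), 3 of 9 members against 6.18% of all genes. The same 3 passed after rescaling, against 4.65% of all genes. The count was 5 without YKL 6 h replicate 1 or YKL 24 h replicate 3, and 1 without YKL 6 h replicate 2. The call of HSPD1 was kept in all 17 alternatives. That of FKBP4 was lost without YKL 6 h replicate 2 (-1.57, adjusted p = 0.0506). That of HSP90AA1 was kept in 4 of 17, among them the fits without DMSO 6 h replicate 2, YKL 6 h replicate 1 or YKL 24 h replicate 3, and lost without any 1 of the other libraries (adjusted p = 0.0502 to 0.12). For HSPA8, which fell at both times, the difference was -0.35 ± 0.49 (adjusted p = 0.676).

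In MM1S the order of the times was the other way round for CHORDC1, whose response at 24 h was above that at 6 h by 1.76 ± 0.34 (adjusted p = 0.0454), 1 of 9 members against 0.0322% of all genes. This call was kept in 7 of 19 alternatives, among them those without YKL 6 h replicate 1 or DMSO 24 h replicate 2 or 3, and lost without any 1 of the other libraries (adjusted p = 0.0739 to 0.131). Without DMSO 24 h replicate 2 the count was 3. After rescaling DNAJB1 and HSPA1B passed as well (1.67 and 1.11), 3 of 9 against 4.31% of all genes. The MM1S DMSO libraries at 24 h that enter these differences include the one with spread spike-ins. Without the 2 such libraries CHORDC1 had 1.66 (adjusted p = 0.175) on the deposited scale and 1.64 (adjusted p = 0.000449) after rescaling.

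Between the lines at 6 h the response of HSPA1B was higher in H929 than in MM1S by 1.98 ± 0.34 (adjusted p = 0.0232), 1 of 9 members against 0.137% of all genes. After rescaling it was 1.72, and DNAJB1 (1.57) and CHORDC1 (1.03) passed too, 3 of 9 against 0.725% of all genes. The call of HSPA1B on the deposited scale was lost without H929 DMSO replicate 3, H929 YKL replicate 2 or 3, MM1S DMSO replicate 1 or MM1S YKL replicate 3 (adjusted p = 0.0548 to 0.0721), where the count was 0, and with a pseudocount of 0.1 (adjusted p = 0.0672). Without H929 YKL replicate 1 the count was 2. At 24 h 0 of 9 members passed on the deposited scale by limma, 4 of them with an unadjusted p under 0.05, but 3 passed without H929 YKL replicate 3 and 4 without MM1S DMSO replicate 2. After rescaling HSPD1 (-0.87) and FKBP4 (-0.77) were lower in H929, against 4.32% of all genes, and HSPA1B (1.15) was higher, against 8.02% of all genes. Dose and line go together in each of these differences.

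With DMSO the members differed between the lines. At 24 h all 9 were higher in H929 than in MM1S, as were 67.9% of all genes, and after rescaling 4 were (HSP90AA1, CHORDC1, FKBP4 and HSPD1), against 22.4% of all genes. Without the 2 libraries with spread spike-ins 9 were higher, and 7 after rescaling. At 6 h 6 were higher, against 36.4% of all genes, and HSPA1B was lower, against 12.7% of all genes. After rescaling 4 were higher at 6 h, against 22.6% of all genes, and HSPA1B and DNAJB1 were lower, against 31.1% of all genes. HSP90AA1 averaged 1229 ± 50.6 FPKM in H929 and 75 ± 23.9 FPKM in MM1S at 24 h (log2 change 4.07 ± 0.31, adjusted p = 1.48e-10). HSPA1B averaged 17.7 ± 1.14 FPKM in H929 and 33.6 ± 5.51 FPKM in MM1S at 6 h (log2 change -0.88 ± 0.24, adjusted p = 0.00455).

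The order of the 8 groups by mean FPKM followed from this. H929 with DMSO at 6 h was the highest group for 6 of the 9 tested members, H929 with DMSO at 24 h for CHORDC1, and MM1S with DMSO at 6 h for HSPA1B and DNAJB1. MM1S with YKL at 24 h was the lowest group for 8 of the 9, and MM1S with YKL at 6 h for CHORDC1. Neighbours in this order often overlapped, from 2 of the 7 neighbouring pairs for HSP90AA1 to 5 of 7 for DNAJB1 and HSPH1, and all 7 for HSPA1A. After rescaling the highest group was H929 with DMSO at 6 h for 4 members and MM1S with DMSO at 6 h for 3. For 2 members it was H929 with DMSO at 24 h. The lowest group was then MM1S with YKL at 24 h for 4 members and MM1S with YKL at 6 h for 3. For 2 (HSPD1 and HSPE1) it was H929 with YKL at 24 h. On the deposited scale summed FPKM was 361698 to 430746 in MM1S with YKL at 24 h. It was 2088290 to 2519630 in H929 with DMSO at 6 h. The share of all genes with the same highest or lowest group was not computed on either scale. These counts therefore do not set the members apart from other genes.

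Ratios of 2 genes within a library do not depend on the scale of the library. The log2 ratio of HSPA1B to HSPA8 ran from -2.80 to -2.62 in H929 with YKL at 24 h, against -5.49 to -4.56 with DMSO. At 6 h it ran from -3.05 to -2.71 with YKL, against -5.01 to -4.19 with DMSO. The inducible gene was thus higher relative to the constitutive one in every YKL library of H929, and the groups did not overlap. This was not particular to HSPA1B, since HSPA8 itself fell. At 6 h in H929 the ratio of every other tested member to HSPA8 rose too, without overlap. HSPD1, for one, ran from 1.67 to 1.97 with YKL, against 0.08 to 0.65 with DMSO. At 24 h DNAJB1, HSPH1, HSPE1 and CHORDC1 rose over HSPA8 too, and HSPD1, FKBP4 and HSP90AA1 overlapped. On the log2 scale HSPA8 itself moved by -1.81 at 6 h and -2.17 at 24 h in H929. The median of all tested genes moved by -0.06 and -0.46. Any gene that fell less than HSPA8 rises in this ratio. The share of all genes that rose over HSPA8 without overlap was not computed. In MM1S the ratio of HSPA1B to HSPA8 ran from -3.88 to -2.34 with YKL at 24 h, against -5.03 to -3.42 with DMSO. The 6 h range was -2.33 to -1.76 with YKL, against -1.94 to -1.55 with DMSO. Those groups overlapped at both times, also without the 2 libraries with spread spike-ins, where the ratio ran from -3.59 to -3.42 with DMSO at 24 h and from -2.22 to -1.76 with YKL at 6 h.

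For DNAJB1 over HSPA8 the direction at 6 h differed by line. The log2 ratio ran from -0.10 to 0.19 in H929 with YKL at 6 h, against -1.31 to -1.16 with DMSO. In MM1S at 6 h it ran from 0.36 to 0.96 with YKL, against 1.22 to 1.59 with DMSO. DNAJB1 was thus higher relative to HSPA8 with YKL in H929 and lower in MM1S, with no overlap in either, and this difference of ratios was not tested. At 24 h the ratio was above the DMSO libraries in both lines, at -0.21 to 0.40 against -0.75 to -0.63 in H929 and at 0.50 to 0.80 against -0.96 to 0.05 in MM1S, where it was -0.05 to 0.05 with DMSO without replicate 1.

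**Figure D4:**
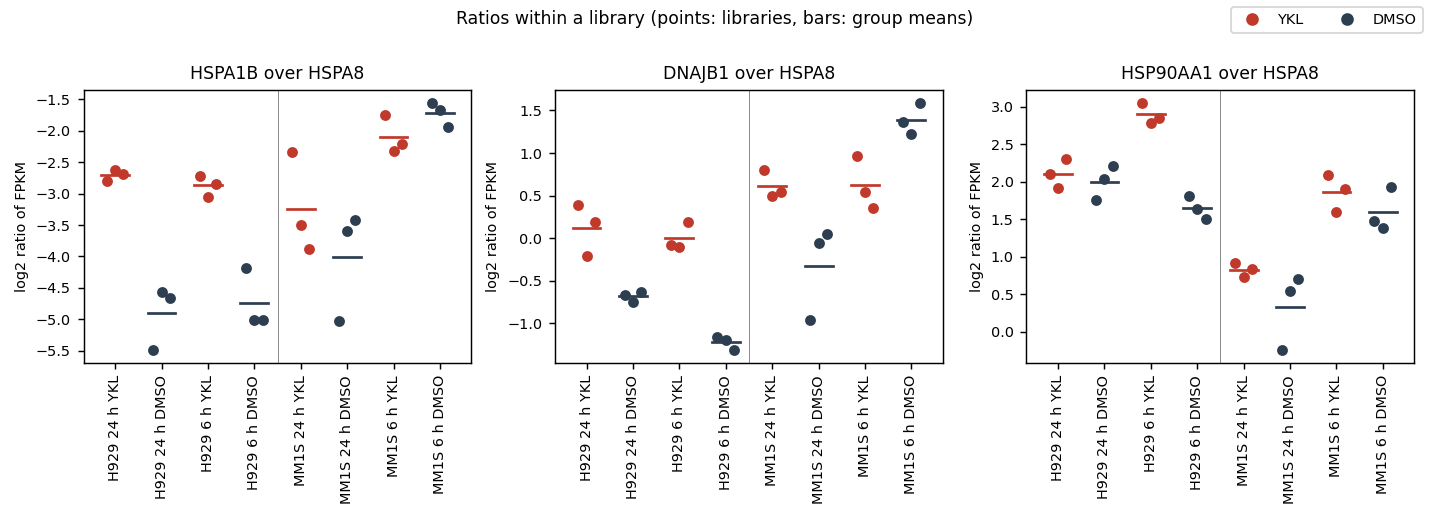
Log2 ratio of the FPKM of HSPA1B, DNAJB1 and HSP90AA1 to that of HSPA8 within each library, with YKL (red) left of DMSO (dark). Points are libraries and bars are group means. In H929 the YKL libraries lie above the DMSO libraries at both times for HSPA1B and DNAJB1, and at 6 h for HSP90AA1. In MM1S at 6 h the DNAJB1 ratio with YKL lies below the DMSO libraries.

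Over the 24 libraries after rescaling, the tested members followed each other to differing degrees. Across the 36 pairs Pearson's r ran from -0.045 (HSPA1B and HSPA8) to 0.918 (HSPD1 and FKBP4), with a median of 0.617. These are descriptions over libraries that share lines, treatments and scale. HSPH1 lay nearest the mean of the other tested members (r = 0.856) and HSPA1B farthest (r = 0.336). The genes outside the members whose profile was most like the members' mean, among 6533 candidates over the 24 libraries, were CACYBP (r = 0.901), MRPL17 (0.899), MCM4 (0.897), DCTPP1 (0.895) and TCOF1 (0.888). That mean includes HSPA1A, which did not pass the filter, and against the mean of the 9 tested members the order differed, with DCTPP1 at 0.937 and CACYBP at 0.897. CACYBP is a cochaperone in the lists below, MRPL17 a subunit of the mitochondrial ribosome, MCM4 a subunit of the replicative helicase, DCTPP1 a nucleotide pyrophosphatase and TCOF1 a nucleolar factor.

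HSF1, the driver of the heat shock genes, averaged 8.03 ± 3.18 FPKM with YKL and 17.5 ± 1.92 FPKM with DMSO in H929 at 24 h (SD, n = 3), a log2 change of -1.10 ± 0.30 (adjusted p = 0.00607) that did not pass after rescaling (-0.33, adjusted p = 0.1). In MM1S at 6 h it averaged 43.1 ± 2.02 FPKM with YKL and 37.1 ± 5.98 FPKM with DMSO. That change of 0.22 ± 0.30 did not pass on the deposited scale (adjusted p = 0.677), and after rescaling HSF1 rose (0.68, adjusted p = 0.00468), as did 8.25% of all genes. HSF2, a related factor, averaged 39.1 ± 17.3 FPKM with YKL and 88.2 ± 9.94 FPKM with DMSO in H929 at 24 h (log2 change -1.26 ± 0.33, adjusted p = 0.00438, and 0.0448 after rescaling). HSBP1, which binds HSF1 and dampens it, fell there too (-0.86 ± 0.29, adjusted p = 0.0217), but had -0.03 after rescaling (adjusted p = 0.902). CDK7, the kinase that YKL is directed at, did not pass in any of the 4 YKL comparisons, with log2 changes between -0.73 and -0.24 on the deposited scale.

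The other chaperones and their partners are given by lists. Some genes stand in more than 1 list (CACYBP, DNAJA1 and HSPB1 among them), so the counts of different lists are not independent. Of 15 tested HSF1 targets outside the members, 10 fell with YKL in H929 at 24 h (against 35.4% of all genes) and 6 after rescaling (12.5%). On the deposited scale 6 fell in MM1S at 6 h (10.0%) and 6 after rescaling (7.22%), where 1 rose (8.25%). With time in MM1S with DMSO 14 were lower (56.0%), and 6 after rescaling (5.38%). HSP90AB1, the constitutive HSP90, averaged 770.7 ± 275 FPKM with YKL and 2519 ± 273 FPKM with DMSO in H929 at 24 h (log2 change -1.77 ± 0.29, adjusted p = 6.94e-05, -0.93 rescaled). DNAJA1, a J domain partner of HSP70, averaged 23.6 ± 1.47 FPKM with YKL and 54.6 ± 6.39 FPKM with DMSO in MM1S at 6 h (-1.17 ± 0.26, adjusted p = 0.00626, -0.72 rescaled). SERPINH1, a collagen chaperone, fell there as well, with 0.944 ± 0.41 against 3.81 ± 0.611 FPKM (-1.32 ± 0.25, adjusted p = 0.00256, -1.04 rescaled). HSPB1, a small heat shock protein, averaged 14.9 ± 1.53 FPKM with YKL and 30 ± 2.43 FPKM with DMSO (-0.97 ± 0.22, adjusted p = 0.00751, -0.52 rescaled). HSPA6, a strictly inducible HSP70, averaged 0.635 ± 0.137 FPKM at 24 h and 5.93 ± 2.96 FPKM at 6 h in MM1S with DMSO (-1.98 ± 0.25, adjusted p = 5.78e-05, -1.34 rescaled). The 1 rise on the deposited scale was that of DNAJB4, another J domain protein, in H929 at 6 h, against 1.03% of all genes that rose, with 1.47 ± 0.235 FPKM with YKL and 0.399 ± 0.0522 FPKM with DMSO (0.82 ± 0.21, adjusted p = 0.0434), and it did not pass after rescaling (adjusted p = 0.135).

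The cochaperones of HSP90 and HSP70 gave more mixed counts. Of 15 HSP90 cochaperones, 11 fell with YKL in H929 at 24 h (against 35.4% of all genes), and 7 after rescaling (12.5%), where 1 rose (20.8%). In MM1S at 6 h 2 fell on the deposited scale (10.0%) and 2 after rescaling (7.22%), where 1 rose (8.25%). In MM1S at 24 h 2 fell (6.77%), and 4 after rescaling (13.3%), where 2 rose (share of all genes that rose not given). PTGES3, the p23 cochaperone, averaged 140 ± 8.2 FPKM with YKL and 283 ± 6.78 FPKM with DMSO in MM1S at 6 h (-1.01 ± 0.27, adjusted p = 0.0183, -0.54 rescaled). FKBP5, a relative of FKBP4 that is also a target of the glucocorticoid receptor, averaged 1.14 ± 0.071 FPKM with YKL and 5.75 ± 3 FPKM with DMSO in MM1S at 24 h (-1.54 ± 0.28, adjusted p = 0.000977, -1.58 rescaled). Of 12 J domain partners tested, 5 fell in H929 at 24 h (against 35.4% of all genes), and 3 after rescaling (12.5%). Of the same genes 3 fell in MM1S at 6 h (10.0%), and after rescaling 2 fell (7.22%) and 2 rose (8.25%). DNAJC2, a ribosome associated J domain protein, was the 1 that fell in H929 at 6 h, with 17.8 ± 2.65 FPKM with YKL and 54.9 ± 14.1 FPKM with DMSO (-1.55 ± 0.29, adjusted p = 0.00533, -1.33 rescaled). Of 8 nucleotide exchange factors of HSP70, 7 fell in H929 at 24 h (35.4% of all genes) but 1 after rescaling (12.5%), and 3 fell in MM1S at 6 h (10.0%) and 2 after rescaling (7.22%), among them BAG2 with 0.704 ± 0.23 against 3.84 ± 1.22 FPKM (-1.48 ± 0.23, adjusted p = 0.000408, -1.20 rescaled).

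The counts of other folding machines and compartments in H929 at 24 h stand against 35.4% of all genes that fell there, and 12.5% after rescaling. Rises after rescaling stand against 20.8% of all genes that rose. All 8 subunits of the cytosolic chaperonin TRiC fell, 7 after rescaling, with CCT3 at 239 ± 70.3 FPKM with YKL and 728 ± 34.4 FPKM with DMSO (-1.65 ± 0.28, adjusted p = 0.000119, -0.81 rescaled). Of 6 prefoldin subunits, which pass substrates to TRiC, 4 fell (2 after rescaling, where 1 rose). Of 12 mitochondrial chaperones and proteases, 11 fell (4 after rescaling), with TRAP1, the mitochondrial HSP90, at 41 ± 12.8 FPKM with YKL and 159 ± 16 FPKM with DMSO (-1.98 ± 0.29, adjusted p = 2.94e-05, -1.14 rescaled). Of 12 chaperones of the endoplasmic reticulum, 8 fell (4 after rescaling, where 2 rose), with HSPA5, the HSP70 of that compartment, at 252 ± 92.3 FPKM with YKL and 999 ± 62.7 FPKM with DMSO (-2.05 ± 0.28, adjusted p = 1.25e-05, -1.21 rescaled). Of the TRiC subunits 2 fell in MM1S at 6 h (10.0% of all genes), and 3 after rescaling (7.22%), CCT5 with 48 ± 6.44 FPKM with YKL and 97.5 ± 2.78 FPKM with DMSO (-1.02 ± 0.28, adjusted p = 0.0235, -0.55 rescaled). The other 3 of these lists did not fall there on the deposited scale, with 0 prefoldin, 0 mitochondrial and 0 endoplasmic reticulum genes called. After rescaling 0 prefoldin genes were called. Of the mitochondrial genes 0 then fell and 2 rose (8.25%), and of the endoplasmic reticulum genes 1 fell (7.22%) and 2 rose (8.25%). With time in MM1S with DMSO 11 of the 12 endoplasmic reticulum genes were lower on the deposited scale, against 56.0% of all genes, but after rescaling 4 were higher, against 10.3% of all genes that were higher. Of the 2 small heat shock proteins tested of 9, HSPB1 fell with YKL in H929 at 24 h (-0.84 ± 0.22, adjusted p = 0.00445, and 0.992 after rescaling) and in MM1S at 6 h on both scales.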

How the data were processed

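RNA of 24 libraries (3 per line, treatment and time) was read from the 3′ end. The authors deposited FPKM values per gene and library, made with HISAT2 and Cuffnorm on hg19 per the submitters' processing notes. Versions, the scaling behind the level spike-ins and counts are not given in the sources used here, so depth is unknown and no interval for counting error can be given. Each library had 26341 entries, 92 of them ERCC spike-ins. Of 26249 genes, 12418 reached 1 FPKM in 3 or more libraries and were tested with limma 3.58.1 (R 4.3.3, limma-trend, two-sided, 8 group means in 1 fit) on log2(FPKM + 1), with Benjamini-Hochberg adjustment over all of them and a threshold of 0.05. The pseudocount understates changes of low genes. Rescaling divided each library by its median ratio to 6014 genes whose geometric mean was 5 FPKM or more. The fit was tested on simulated data.

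The members and lists were chosen with earlier results of these data known. Named genes are all members, HSF1, HSF2, HSBP1 and CDK7, at most the 3 called genes of each list with the smallest adjusted p per comparison, and the 5 genes whose rescaled profile correlated best with the members' mean. Alternatives were the rescaling, a pseudocount of 0.1, no filter, a separate fit per line, a replicate block, leaving out each library, and leaving out the 2 libraries with spread spike-ins, the last chosen after seeing the data. Promoters are RefSeq windows on GRCh38.p14, and transcripts are from GENCODE v29.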

Additional observations from a re-analysis of the deposited data

Results flagged for a closer look

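For 5 members the response to YKL differed between lines or times by a test of the difference itself (limma, adjusted over all tested genes). Differences are on the log2 scale with their standard error. Between the lines at 6 h, HSPA1B was higher in H929 than in MM1S by 1.98 ± 0.34 (adjusted p = 0.0232), with adjusted p from 0.000255 to 0.0721 over 18 alternatives. In H929 the response at 24 h minus that at 6 h was -2.06 ± 0.41 for HSPD1 (adjusted p = 0.00607, range 7.21e-05 to 0.0268 over 17 alternatives). It was -1.66 ± 0.39 for FKBP4 (adjusted p = 0.0152, range 0.000704 to 0.0506) and -1.50 ± 0.43 for HSP90AA1 (adjusted p = 0.0403, range 0.0116 to 0.12). In MM1S it was 1.76 ± 0.34 for CHORDC1 (adjusted p = 0.0454, range 0.000149 to 0.221 over 19 alternatives). The libraries of 1 line and time were not tested for single samples far from the others, since each group holds 3.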

How the results depend on the processing

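Counts are of the 9 tested members past the threshold. Apart from those of the rescaling alone, they are given without the share of all genes called in the same fit. They show how the calls depend on the setting and not whether the members differ from other genes. Rescaling gave 7 in MM1S with YKL at 24 h (3 on the deposited scale), 1 in H929 DMSO over time (0), 3 for H929 minus MM1S at 6 h (1), 3 at 24 h (0), 3 for the MM1S response at 24 h minus 6 h (1) and 4 for H929 against MM1S with DMSO at 24 h (9). It turned the sign of HSPA8 over time in MM1S DMSO, to 0.25 (adjusted p = 0.548), where MM1S DMSO 24 h replicate 1 alone lay above the 6 h libraries; without the 2 libraries with spread spike-ins it was -0.19. For the changed counts the cause was not tested. A pseudocount of 0.1 gave 0 for H929 minus MM1S at 6 h. No filter gave 1 in MM1S with YKL at 24 h. Separate fits gave 1 there and 0 for the MM1S response over time. Without the 2 libraries with spread spike-ins these were 1 and 0, and with rescaling as well 6 and 4, with 3 for H929 minus MM1S at 6 h, 4 at 24 h and 7 for H929 against MM1S with DMSO at 24 h.

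Leaving out 1 library gave 0 to 5 in MM1S with YKL at 24 h, 0 to 2 for H929 minus MM1S at 6 h, 0 to 4 at 24 h, 1 to 5 for the H929 response over time and 0 to 3 for that of MM1S. It gave 8 in H929 with YKL at 24 h, 1 at 6 h, 6 to 7 in MM1S with YKL at 6 h, 8 to 9 in MM1S DMSO over time and 0 in H929 DMSO over time.

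Replicate numbers were shared between groups, and same-numbered libraries deviated together with r from -0.206 to 0.21. With 3 libraries per group such values cannot exclude that the numbers pair the samples, and the main fit did not use them as pairs. A replicate block gave 8 and 1 in H929 with YKL at 24 h and 6 h, 2 and 7 in MM1S, 0 and 9 in DMSO over time in H929 and MM1S, 1 and 0 for H929 minus MM1S at 6 h and 24 h, 2 and 0 for the responses over time of H929 and MM1S, and 9 and 5 between the lines with DMSO at 24 h and 6 h.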

Other observations

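Relatives of the inducible HSP70 genes had these levels over the 24 libraries. HSPA1L ran from 0.0687 to 0.838 FPKM, HSPA6 from 0.08 to 8.43 FPKM and HSPA7 from 0.0712 to 3.16 FPKM. The read-through gene HSPE1-MOB4, which shares exons with HSPE1, ran from 0.0622 to 0.177 FPKM.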
